A study of Mus musculus with 12 samples.

Results

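The mouse transcript list that the study counted reads against holds 15385 entries named only by a cDNA accession, AK followed by 6 digits, beside the genes with ordinary symbols. These are cDNA clones that the list gives by accession, without a gene symbol. The 55 clones described here were selected on measured values. Of the 1338 AK clones with a mean of at least 0.2 CPM (the count scaled to its library's total) over all 12 libraries, they are those in which every library of the lesioned striatum lay on one side of every library of the unlesioned striatum, with a difference in group means of at least 1 on the log2 scale, after acute or after chronic L-DOPA. The ratio was taken with 0.05 CPM added to each mean, which understates the change of the lowest clones. Because these values chose the clones, lesioned and unlesioned levels are given below as a description, and tests are given only in the treatment other than the one whose difference chose a clone. The minimum of 0.2 CPM was taken over all 12 libraries, so the level in the tested libraries entered the choice while their difference did not.

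The libraries came from the striatum of female C57BL/6J mice with a right-sided 6-OHDA injection into the medial forebrain bundle, which removes the dopamine input of that side and serves as a model of Parkinson's disease. All mice received desipramine at 25 mg/kg before the toxin, recovered for 2 weeks, and were injected i.p. with 10 mg/kg L-DOPA and 7.5 mg/kg benserazide, an inhibitor of L-DOPA conversion outside the brain. Acute mice received 1 injection and chronic mice a daily injection for 9 days, and tissue was taken 1 h after the last dose. The 4 groups were acute unlesioned, acute lesioned, chronic unlesioned and chronic lesioned, with 3 libraries each. No group in these libraries lacked L-DOPA, so the lesion and the response to the drug on that side cannot be told apart. The ages were not given in the sources used here. A level in whole striatum cannot separate a change in the number of cells that carry a transcript from a change per cell.

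The libraries held between 87744817 and 173190519 counts, and 3 counts correspond to between 0.0173 and 0.0342 CPM. Markers of medium spiny neurons (MSNs), the principal striatal neurons, summed to between 1506 and 1997 CPM in every library. The 7 of 8 markers of cortical glutamatergic neurons found in the list summed to 13.5 to 31.6 CPM in acute unlesioned and 2.65 to 16.2 CPM in acute lesioned libraries, and to 5.71 to 42.6 and 2.01 to 22.6 CPM in chronic ones, and were lower in the lesioned library of all 6 pairs of the same replicate number. The 5 astrocyte markers summed to a median of 158 CPM in acute unlesioned and 206 CPM in acute lesioned libraries, and of 140 and 171 CPM in chronic ones, and were higher in every lesioned than in every unlesioned library of both treatments. The 7 microglial markers summed to 72.5 to 74.9 CPM in acute unlesioned and 78 to 89.9 CPM in acute lesioned libraries, and overlapped between chronic groups. The 6 oligodendrocyte markers summed to 2079 to 2358 CPM in acute unlesioned and 2130 to 3376 CPM in acute lesioned libraries, and to 1608 to 2306 and 1131 to 2083 CPM in chronic ones. These groups overlapped, but the lesioned library was the higher of every acute pair of the same replicate number and the lower of every chronic pair. The part of these cells in the levels of the clones was not tested. Choroid plexus markers summed to 481 CPM in chronic unlesioned replicate 2 and to at most 2.98 CPM in each of the other libraries. Without that library the rule took 62 clones, and 52 of the 55 were among them.

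Transcripts outside gene models arise in several ways. A clone may come from an unspliced or alternatively ended form of the gene around it, from an unannotated extension behind or ahead of a gene, from the opposite strand, or from a gene of its own. In neurons, genes induced by activity within minutes to hours include transcription factors such as Fosl2 and Npas4 and synaptic scaffold genes such as Homer1, whose short induced forms end inside an intron of the full-length gene. Full-length cDNA collections were primed with oligo(dT), which anneals to the poly(A) tail and also to runs of A within a transcript.

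Of the 55, 36 overlapped a named gene of the same list, 22 on the same strand and 14 on the opposite strand. A further 14 lay within 10 kb of one, 9 on the same strand and 5 on the opposite, and 5 were farther away. Clones lying within 10 kb of each other were joined, which left 49 loci. In GENCODE vM1, the annotation of the same build, 23 of the 55 (41.8%) lay mainly in an intron of a same-strand gene, 11 lay mainly opposite a gene, 21 lay mainly outside any gene, and 0 lay mainly in a same-strand exon. Among the other 1283 clones of at least 0.2 CPM, 25.6% lay mainly in a same-strand intron and 4.21% in a same-strand exon, 34.4% lay mainly opposite a gene (20% of the 55) and 35.9% outside any gene (38.2% of the 55). A single exon was listed for 49 of the 55 (89.1%), against 79% of the other clones. Their median length was 2039 bases and their median level 0.555 CPM, against 2094 bases and 0.575 CPM for the other clones.

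The sequence around the 3′ end is shown for 5 A-rich intronic clones, which are not all of the leading ones, because the A content behind the end differed between intronic and other clones. AK089846, in Arih1, had a higher acute ratio than some of them but was followed by only 6 A in 20 bases, without a poly(A) signal hexamer. In the lines below, the 40 lower-case bases are the end of the clone, and the 20 capitals are the mm9 genome that follows it on the clone's strand. AK143311 (window at chr5:32441978-32442037, plus strand) lies in Fosl2, AK142061 (chr11:119823850-119823909, plus) in Baiap2, AK035139 (chr13:94132880-94132939, plus) in Homer1, AK138684 (chr11:69785584-69785643, minus) in Rai12 and AK140931 (chrX:133271839-133271898, minus) in Morf4l2.
AK143311: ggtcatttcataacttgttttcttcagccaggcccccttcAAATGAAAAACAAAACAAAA
AK142061: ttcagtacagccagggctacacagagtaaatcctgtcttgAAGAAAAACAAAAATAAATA
AK035139: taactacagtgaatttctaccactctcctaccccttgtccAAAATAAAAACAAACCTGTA
AK138684: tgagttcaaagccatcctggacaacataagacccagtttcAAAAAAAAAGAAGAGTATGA
AK140931: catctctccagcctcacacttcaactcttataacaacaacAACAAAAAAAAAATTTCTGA
Over the 22 clones with an exon on both sides in GENCODE, 9 (40.9%) started within 1 kb of the exon before, against 63 of 233 other intronic clones (27%). In each of the 5 the genome continued with 13 to 16 A in 20 bases, and none held AATAAA or ATTAAA, the common signals for poly(A) addition, in its last 40 bases.

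Clones with such a signal are shown for contrast, with the hexamer in capitals and the 20 following genomic bases in lower case. AK081443 (chr7:126284245-126284304, minus) lies behind Gpr139, and AK134233 (chr8:122083600-122083659, minus) overlaps a listed transcript of Hsdl1. AK043110 (chr19:4761303-4761362, plus) lies in an intron of Rbm4b, and AK040135 (chr14:55101860-55101919, plus) lies behind Rem2.
AK081443: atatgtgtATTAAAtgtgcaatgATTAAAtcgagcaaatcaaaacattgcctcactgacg
AK134233: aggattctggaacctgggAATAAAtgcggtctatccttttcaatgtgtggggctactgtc
AK043110: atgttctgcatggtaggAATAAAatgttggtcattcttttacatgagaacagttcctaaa
AK040135: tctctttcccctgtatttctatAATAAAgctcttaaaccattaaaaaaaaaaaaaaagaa
AK081443 and AK134233 were followed by 7 and 3 A in 20 bases, while AK040135 had both a hexamer and 17 A behind it.

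Over all clones, at least 12 A in the 20 bases behind the end were found in 27 of the 55 (49.1%) and in 433 of the other 1283 (33.7%). Among the 23 mainly in a same-strand intron the count was 19 (82.6%), against 177 of the 328 other intronic clones (54%). The hexamers were present in the last 40 bases of 3 of these 23 (13%) and of 123 of the 328 (37.5%). Among the clones mainly opposite a gene the A-rich share was lower in the 55, with 2 of 11 (18.2%) against 142 of 441 others (32.2%), and it was 24 of 43 (55.8%) in the higher and 3 of 12 (25%) in the lower clones of the 55. Outside introns and other genes the picture was different, with a hexamer in 13 of 21 clones (61.9%) and in 280 of 460 others (60.9%). Whether the A runs bear on the levels was not tested. The profile of A by distance from the end shows a step at the last base of the clone, which was A in 0% to 3.12% of clones in the 4 sets plotted, while the next genomic base was A in 59.4% to 82.6%. A genomic A next to the poly(A) tail cannot be told from the tail, so this step depends on where the clone ends were set, which was not tested.

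**Figure D1:**
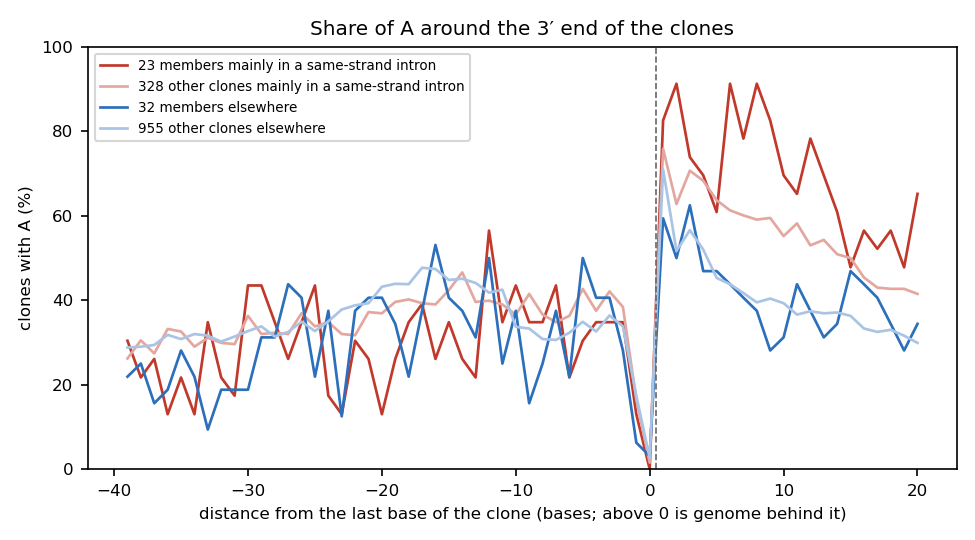
Share of clones (%) with an A at each base from 39 before to 20 behind the last base of the clone, on the clone's strand in mm9. Lines stand for the 23 clones mainly in same-strand introns (dark red), the 328 other intronic clones (light red), the 32 remaining clones (dark blue) and the 955 remaining others (light blue); the dark red line stays highest over most of the 20 bases behind the end.

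After acute L-DOPA the rule was met by 26 clones that were higher and 3 that were lower in the lesioned striatum, which is 1.94% and 0.224% of the 1338. The same rule applied to 12706 named genes of at least 0.2 CPM was met by 1.18% (higher) and 0.22% (lower). After chronic L-DOPA 31 clones were higher (2.32%) and 11 lower (0.822%), against 2.12% and 0.669% of named genes. Higher in both treatments were 14 of the 55, and 2 were lower in both. Of the others, 12 were higher and 1 lower in acute libraries alone, and 17 were higher and 9 lower in chronic libraries alone. None of the 55 met the rule in opposite directions.

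**Figure D2:**
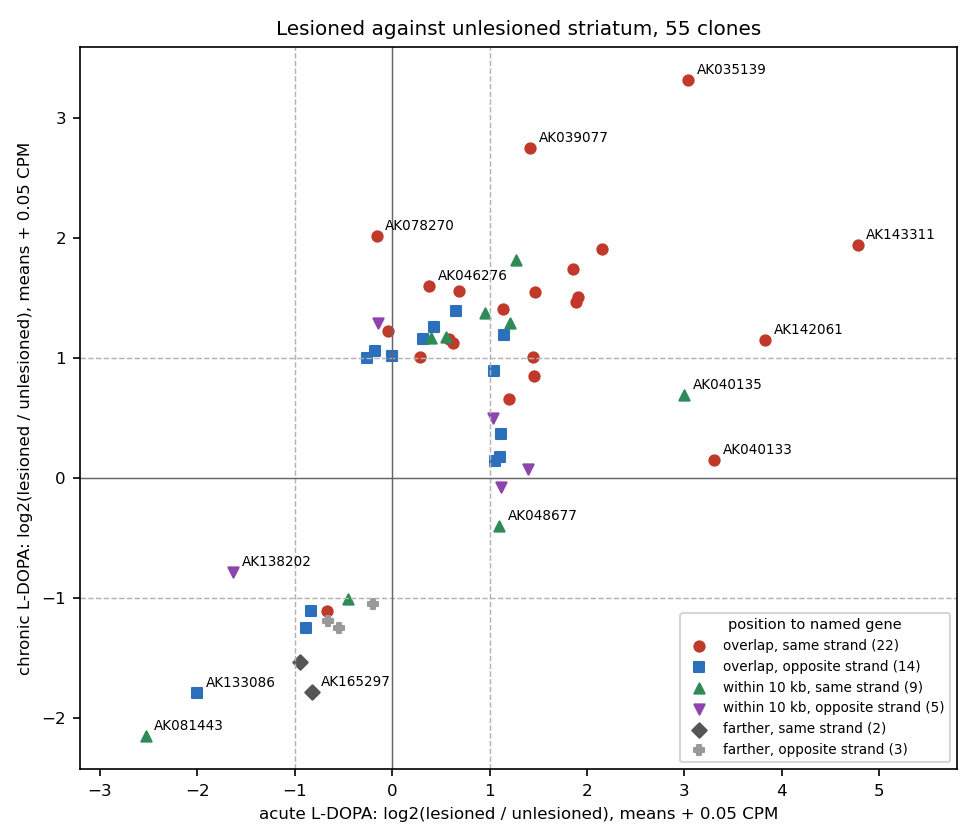
Log2 ratio of lesioned to unlesioned means (each mean plus 0.05 CPM) after acute (x axis) and chronic L-DOPA (y axis) for the 55 clones, with 1 point per clone marked by its position to the nearest named gene and dashed lines at the threshold of 1. AK143311 stands at 4.78 and 1.94, AK035139 at 3.04 and 3.32, and AK078270 at -0.16 and 2.02.

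The largest acute ratio was that of AK143311, in an intron of Fosl2, which encodes the AP-1 transcription factor Fra-2. The clone lies at chr5:32439289-32442017 and starts 110 bases behind an exon of Fosl2, with the next exon 7180 bases farther on. Its level was 0.0346, 0.0517 and 0.0522 CPM in acute unlesioned and 2.21, 2.61 and 2.94 CPM in acute lesioned libraries, a log2 ratio of 4.78. In chronic libraries it was 0.019, 0.0345 and 0.0272 CPM in unlesioned and 0.311, 0.266 and 0.159 CPM in lesioned samples, a log2 ratio of 1.94. The groups did not overlap in either treatment, and the 3 chronic lesioned libraries lay far under the 3 acute lesioned ones. The level of Fosl2 itself was 92.5, 86.2 and 77.9 CPM in acute lesioned and 77.7, 93.1 and 57.1 CPM in chronic lesioned libraries, so these groups of the gene overlapped while those of the clone did not. Per kb of length, the clone reached 6.49% of the level of Fosl2 in acute lesioned, 0.569% in acute unlesioned and 0.691% in chronic lesioned striatum.

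Another 3 clones were near the limit of detection outside the acute lesioned libraries. AK142061 (chr11:119821898-119823889) starts 51 bases behind an exon of Baiap2, which encodes the postsynaptic actin regulator IRSp53. Its counts were 5, 2 and 2 in acute unlesioned and 152, 74 and 92 in acute lesioned libraries, and its chronic level was 0.122, 0.0734 and 0.167 CPM in lesioned and 0.0284, 0.0259 and 0.0272 CPM in unlesioned libraries, which also met the rule at a ratio of 1.15. AK040133, in an intron of Xrcc6, the gene of the DNA repair protein Ku70, had 0.0289, 0.0443 and 0.0597 CPM in acute unlesioned and 0.798, 0.843 and 1.02 CPM in acute lesioned libraries. Its 6 chronic libraries lay between 0.0517 and 0.0887 CPM, with a ratio of 0.15. AK040133 also lies partly opposite Pppde2, with 6.9% of its bases opposite exons and 37.8% opposite introns, and the counting was not stated to use strand. AK040135 (chr14:55099712-55101899), 441 bases behind Rem2, a small GTPase that restrains calcium channels, had 0.0866, 0.059 and 0.0895 CPM in acute unlesioned and 0.974, 1.14 and 0.817 CPM in acute lesioned libraries. Its chronic lesioned level was 0.0444, 0.0734 and 0.0705 CPM, against 0.0284, 0.0172 and 0.0136 CPM in chronic unlesioned libraries, and these groups did not overlap although their difference missed the rule. The difference of chronic from acute lesioned means was between -2.53 and -3.19 on the log2 scale for these 3 clones and AK143311. The named genes did not share the size of the acute change, with log2 ratios of 0.26 for Baiap2, 0.24 for Xrcc6 and 0.82 for Rem2, against 3.83, 3.31 and 3.00 for the clones.

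AK035139, in Homer1, was about as high after chronic as after acute L-DOPA. It lies at chr13:94131058-94132919, 640 bases behind one exon and 3278 bases ahead of the next. Its level was 0.635, 0.494 and 0.41 CPM in acute unlesioned, 4.52, 4.19 and 5.08 CPM in acute lesioned, 0.426, 0.353 and 0.346 CPM in chronic unlesioned and 3.9, 4.87 and 3.82 CPM in chronic lesioned libraries. The 2 lesioned groups overlapped. Homer1, taken as its listed transcript with the highest mean, had log2 ratios of 1.52 and 2.47, against 3.04 and 3.32 for the clone. That transcript has 5 exons and ends at 94130417, ahead of the clone, so other listed forms of Homer1 are not in these values.

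Further intronic clones differed over genes with small differences, most of them in both treatments. AK089846, in Arih1, the gene of an E3 ubiquitin ligase, had 0.133, 0.103 and 0.097 CPM in acute unlesioned and 0.6, 0.729 and 0.676 CPM in acute lesioned libraries, and 0.399, 0.606 and 0.335 CPM in chronic lesioned against at most 0.102 CPM in chronic unlesioned libraries. Its log2 ratios were 2.16 and 1.91, while those of Arih1 were 0.32 and 0.28. AK138684 (Rai12, 1.91 and 1.51), AK140931 (Morf4l2, 1.89 and 1.47) and AK040628 (Tpm3, a tropomyosin gene, 1.86 and 1.74) had the same form, over genes with ratios between 0.29 and 0.40. In Cdk13, a kinase of RNA polymerase II, AK142939 had log2 ratios of 1.47 and 1.55 and AK081090 of 0.69 and 1.56, with 0.04 and 0.11 for Cdk13; the acute groups of AK081090 overlapped. In Ube2d3, a ubiquitin-conjugating enzyme, AK087898 and AK171839 overlap each other and can share reads, and stood at 1.45 and 1.46 after acute L-DOPA. AK043110, in the splicing regulator gene Rbm4b, met the rule in acute libraries alone, with 1.20 against 0.55 for Rbm4b.

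The chronic libraries chose a further set. AK039077 (chr19:47094609-47096030), in Ina, which encodes the neuronal intermediate filament protein alpha-internexin, had 0.381, 0.387 and 0.394 CPM in acute lesioned against 0.104, 0.133 and 0.104 CPM in acute unlesioned libraries. In chronic libraries it had 0.843, 0.459 and 1.03 CPM in lesioned and 0.123, 0.0345 and 0.0611 CPM in unlesioned samples, so its log2 ratio was 2.75 after chronic and 1.42 after acute L-DOPA. Ina had 2.22 and 0.82. AK078270 (chr2:110562768-110563751), in Ano3, a member of the anoctamin membrane protein family, was higher in chronic lesioned libraries alone. It had 0.577, 0.587 and 0.467 CPM there and between 0.0758 and 0.134 CPM in each of the other 9 libraries. Ano3 had a chronic ratio of 0.76 against 2.02 for the clone. AK078270 also lies opposite Muc15, with 15% of its bases opposite exons and 85% opposite introns, and the counting was not stated to use strand. Smaller chronic ratios were those of AK043459 in Fam115a (1.23), AK155775 in the small GTPase gene Rac1 (1.13), AK038281 in the RNA-binding protein gene Khdrbs1 (1.01) and AK032401 in Pfkp (1.16), over genes between 0.08 and 0.38. AK028007, on the strand of the cohesin loader gene Nipbl, met the rule in both treatments (1.14 and 1.41). The clone lies outside any gene in GENCODE and does not touch the Nipbl transcript used, which had -0.08 and -0.07. AK046276 (chr2:70399540-70399929) lies in an intron of Gad1, which makes the transmitter GABA. It had 1.47, 0.982 and 1.2 CPM in chronic lesioned against 0.36, 0.336 and 0.407 CPM in chronic unlesioned libraries, a ratio of 1.60 against 0.88 for Gad1. The Gad1 transcript used starts behind the clone, at 70400099, and all of the clone (100%) also lies opposite an intron of 1500002O10Rik. AK156531 (chr19:4991357-4993113) lies 1386 bases ahead of Npas4, an activity-dependent transcription factor gene, on the same strand. It had log2 ratios of 1.27 and 1.82, against 2.85 and 2.29 for Npas4.

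Other clones lay just outside a gene. AK135066 (chr13:75270070-75272305) had 2.3, 1.84 and 1.6 CPM in acute unlesioned, 4.77, 4.76 and 3.97 CPM in acute lesioned, 1.44, 1.49 and 1.91 CPM in chronic unlesioned and 4.2, 4.27 and 3.6 CPM in chronic lesioned libraries. It starts 124 bases behind Pcsk1, a prohormone convertase gene, and per kb stood at 81.7% to 98% of the level of Pcsk1 in the 4 groups. AK048677 had 0.45, 0.517 and 0.47 CPM in acute unlesioned and 0.966, 1.03 and 1.27 CPM in acute lesioned libraries, while its chronic groups overlapped. AK030286 and AK139178, ahead of Etf1 and Mtus2, and AK083664, ahead of the RNA-binding protein gene Hnrnpu, were likewise chosen in acute libraries (1.12, 1.39 and 1.04), and their chronic groups overlapped or missed the fold. The rule was met in chronic libraries alone by AK138106 behind Arid3b (1.17), AK142149 behind Rnf217 (1.18), AK039622 ahead of Trim62 (1.29) and AK156559 ahead of Agap2 (1.38). Of these, AK156559 and AK142149 missed the fold after acute L-DOPA but were called there by edgeR's quasi-likelihood test (1.09 ± 0.19 and 0.64 ± 0.15, edgeR adjusted p = 0.00363 and 0.0151). The call of AK142149 was lost without acute unlesioned replicate 2 (0.54, edgeR adjusted p = 0.0627). Of the genes, Arid3b, Rnf217 and Trim62 had chronic ratios of 2.30, 1.66 and 1.01, and Agap2 had -0.05.

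**Figure D3:**
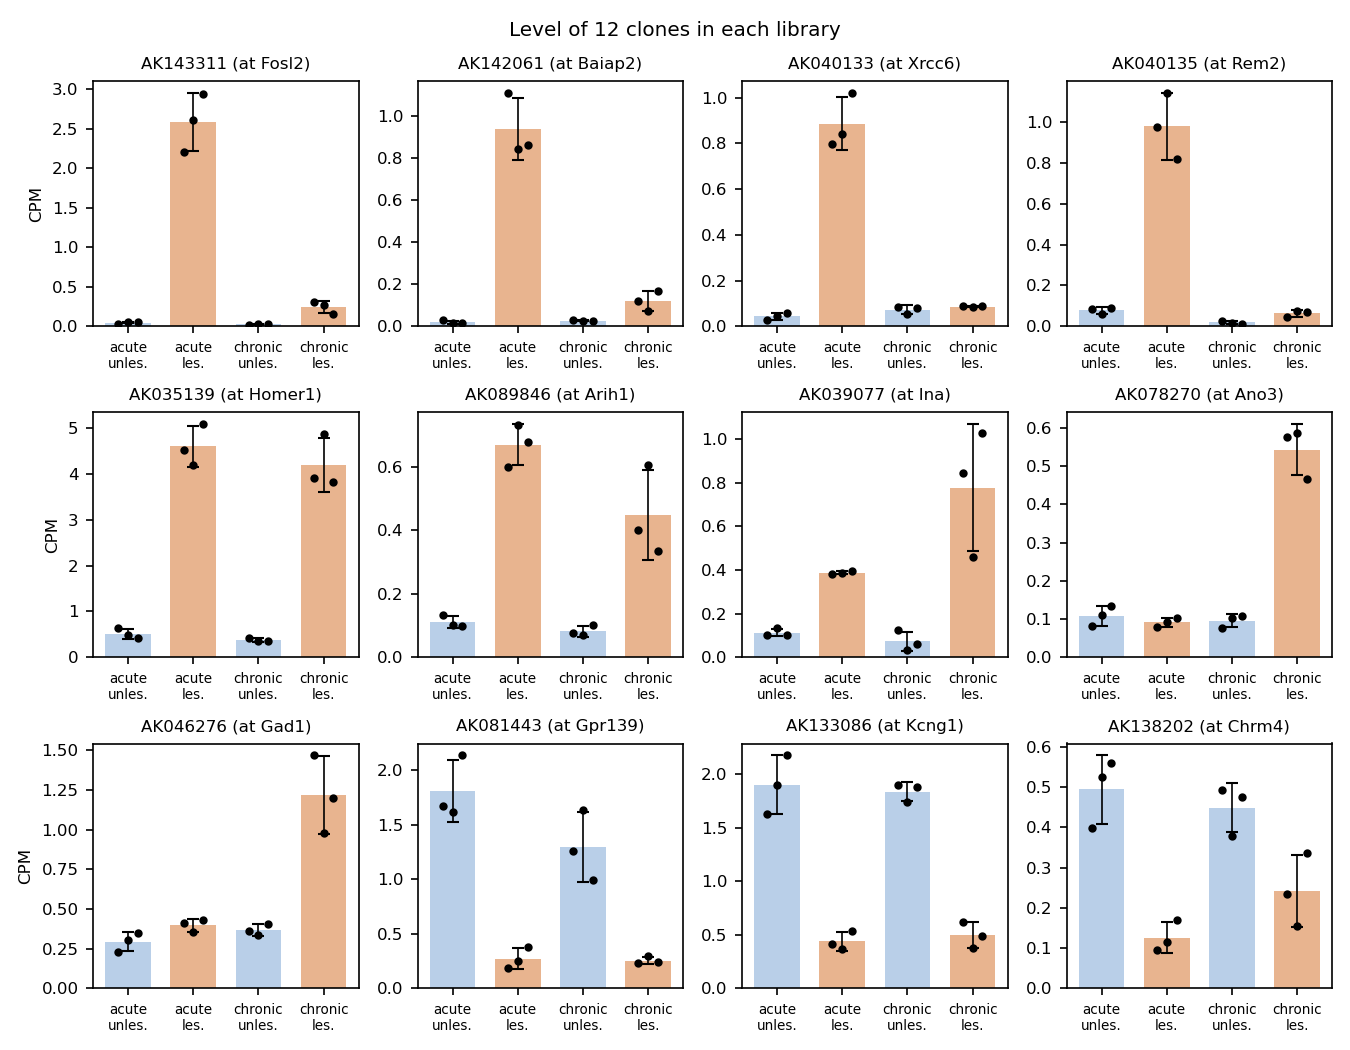
CPM of 12 clones in the 12 libraries; bars are means, error bars are SD (n = 3), points are libraries, and blue and orange stand for unlesioned and lesioned striatum. AK143311, AK142061, AK040133 and AK040135 were high in acute lesioned libraries, AK078270 and AK046276 in chronic lesioned ones, and AK081443, AK133086 and AK138202 were lower in lesioned striatum.

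The clones that were lower in the lesioned striatum numbered 12, against 43 that were higher. AK081443 (chr7:126284265-126286303), 1534 bases behind Gpr139, an orphan G protein-coupled receptor gene, had 1.67, 1.62 and 2.14 CPM in acute unlesioned and 0.19, 0.251 and 0.376 CPM in acute lesioned libraries. Its chronic values were 1.26, 1.64 and 0.998 CPM against 0.233, 0.294 and 0.238 CPM. AK138202 (chr2:91759777-91762013) lies 333 bases ahead of Chrm4 on the opposite strand, the gene of the M4 muscarinic receptor, which is enriched in MSNs that carry D1 receptors. It had 0.398, 0.524 and 0.56 CPM in acute unlesioned and 0.0952, 0.114 and 0.169 CPM in acute lesioned libraries. Both clones were lower in every lesioned library of the acute group, and their genes had log2 ratios of -1.81 and -1.77 there, against -2.53 and -1.63 for the clones.

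AK133086 (chr2:168093984-168094831) was lower too, with log2 ratios of -2.0 and -1.79, but cannot be read apart from Kcng1, a potassium channel subunit gene. All of it (100%) lies opposite exons of Kcng1, the counting was not stated to use strand, and per kb it stood at 94.4% to 98.5% of the level of Kcng1 in all 4 groups. Kcng1 had log2 ratios of -2.07 and -1.91.

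The remaining lower clones met the rule in chronic libraries. AK165297 and AK038448 overlap each other 35888 and 43994 bases ahead of Cry1, a repressor of the circadian clock, and had chronic log2 ratios of -1.78 and -1.53. AK165297 had 0.597, 0.577 and 0.502 CPM in chronic unlesioned and 0.166, 0.0826 and 0.132 CPM in chronic lesioned libraries. AK038448 had 0.985, 1 and 0.93 CPM against 0.399, 0.202 and 0.308 CPM. Cry1 had a chronic log2 ratio of -0.18. AK085712 and AK042516 overlap each other opposite an intron of Rere, a transcriptional corepressor gene, and had chronic ratios of -1.25 and -1.11, against -0.45 for Rere. AK132566 and AK140527 overlap each other on chromosome X in an intron of B230206F22Rik and lie 49485 and 50722 bases from Zcchc13, the nearest named gene, which was too low to be tested. They had chronic ratios of -1.25 and -1.19. AK032241, 203000 bases from the listed Dlg2 transcripts and opposite an intron of Dlg2 in GENCODE, had 0.398, 0.388 and 0.448 CPM in chronic unlesioned and 0.177, 0.165 and 0.176 CPM in chronic lesioned libraries. Dlg2, a postsynaptic scaffold gene, had a ratio of 0.10. AK049610, behind the cell adhesion gene Cntn5, had -1.01, against -0.87 for Cntn5. AK134233, on the strand of Hsdl1, had -1.11, against -0.38 for the Hsdl1 transcript used, which the clone does not touch. In GENCODE AK134233 lies outside any gene.

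All 6 clones opposite an overlapped gene that were chosen in acute libraries, and all 10 chosen in chronic ones, had the sign of that gene. The most abundant clone, AK131730 (chr14:76903779-76905675), lies opposite Tsc22d1, a gene of the TSC22 family of transcriptional regulators, with 54.8% of its bases opposite exons. It had 33.9, 29.1 and 34.4 CPM in chronic lesioned and 16.7, 14.3 and 17.2 CPM in chronic unlesioned libraries, a log2 ratio of 1.02, against 0.98 for Tsc22d1, and -0.00 for both after acute L-DOPA. AK081038, opposite Vps37b, a gene of the ESCRT-I sorting complex, had 1.15 and 1.19, against 1.24 and 1.37 for Vps37b. AK155410, a clone of 14 exons opposite the oxysterol-binding protein gene Osbpl3, had a chronic ratio of 1.06, against 0.89 for the gene, and AK042506 had 1.39, against 1.3 for Usp36. AK042528, opposite the sorting nexin gene Snx21 (1.16), AK089475, opposite the rRNA methyltransferase gene Mrm1 (1.26), and AK143370, opposite the adenosine A1 receptor gene Adora1 (1.00), had larger chronic ratios than their genes (0.68, 0.66 and 0.73). Chosen in acute libraries were AK131699, opposite the complement factor gene Cfb (1.11, gene 1.68), AK082604, opposite the lysosomal thiol reductase gene Ifi30 (1.12, gene 0.97), AK078839, opposite Ccnl1 (1.05, gene 1.47), and AK013499, opposite Xrcc6 (1.06, gene 0.24). The 10 opposite-strand overlaps chosen in chronic libraries had a median of 1.17 in their own direction and of 0.81 for their genes. With strand not stated, the share of reads that a clone and its opposite gene have in common cannot be told apart.

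Most clones that overlapped a gene on its own strand had the larger ratio of the pair, with the gene taken as its listed transcript with the highest mean. Of the 14 same-strand overlaps chosen in acute libraries, 14 had a larger ratio than the gene, with medians of 1.88 for the clones and 0.30 for the genes, and 10 of the genes lay within 0.5 of 0. Of the 19 chosen in chronic libraries 18 had the larger ratio, with medians of 1.51 and 0.38; the exception was AK143311 against Fosl2. Since a high ratio chose the clone and not the gene, the clones were bound to exceed most genes, and no test is given. Same-strand clones within 10 kb of a gene without overlap had the larger ratio in 3 of 5 acute and 4 of 7 chronic cases. Over all positions the gene had the same sign as its clone for 27 of 29 acute and 37 of 42 chronic choices.

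**Figure D4:**
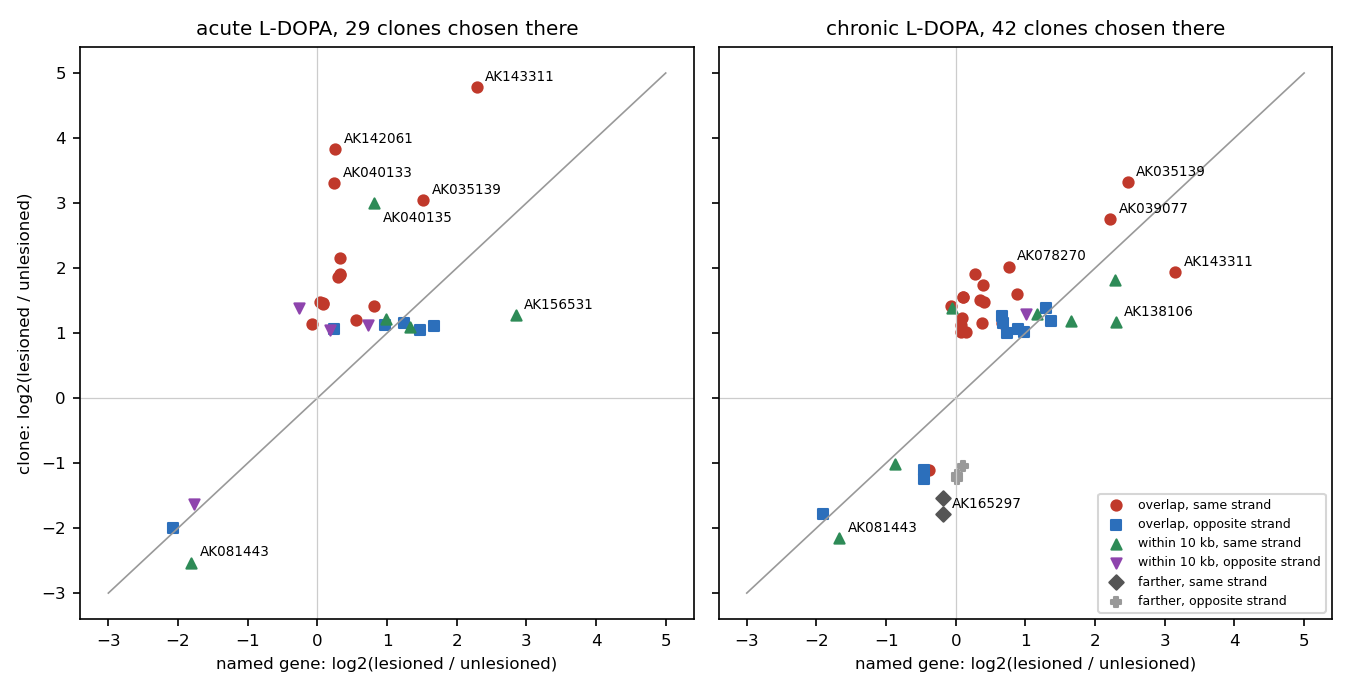
Log2 ratio of lesioned to unlesioned means of each clone (y axis) against that of the named gene it overlaps or is nearest to (x axis), for the 29 clones chosen in acute (left) and the 42 chosen in chronic libraries (right); symbols give the position and the line marks equal ratios. Red circles, clones on the strand of the gene they overlap, lie above the line in 14 of 14 acute cases, while blue squares, clones opposite a gene they overlap, lie within 0.82 of it in both panels.

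Whether a difference that chose a clone in one treatment was also present in the other was tested with edgeR's quasi-likelihood test on the counts of all transcripts, with Benjamini-Hochberg adjustment and a threshold of 0.05. Of the 29 clones chosen in acute libraries, 26 had enough counts to be tested in the chronic libraries, and 17 were called in their acute direction there and 0 against it. Of the 23 higher clones tested, 15 were called higher, where 6.97% of clones of at least 0.2 CPM and 7.71% of all transcripts were. AK087898 and AK171839, both among these 15, overlap each other, so they can share reads and are not 2 independent calls. Of the 3 lower clones tested 2 were called lower, against 4.8% of clones and 4.33% of transcripts. AK142061, AK040133 and AK040135 were not tested because of low chronic counts. Of the 42 clones chosen in chronic libraries all were tested in the acute ones, with 26 called in their direction and 0 against it. AK143311 and AK142061 reached the minimum only through the acute libraries in which they are counted here, and without them 24 of 40 were called. The 26 were 19 of 31 higher clones, against 6.66% of clones and 6.85% of transcripts, and 7 of 11 lower clones, against 6.21% and 6.02%. Among these 7, AK038448 and AK165297 overlap each other, as do AK042516 and AK085712, so each pair can share reads and is not 2 independent calls. All 29 acute choices reached 0.2 CPM in the 6 acute libraries alone.

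Among clones that a single treatment chose, some were called in the other and some were not. After chronic L-DOPA, AK078839, opposite the cyclin gene Ccnl1, had a log2 fold change of 0.99 ± 0.16 (SE, n = 3 per group, edgeR adjusted p = 0.00221), and AK171839 one of 1.00 ± 0.24 (edgeR adjusted p = 0.0241), which was lost without chronic lesioned replicate 1 or 3 or chronic unlesioned replicate 3 (edgeR adjusted p between 0.0872 and 0.101). AK138202 had -0.82 ± 0.28 (edgeR adjusted p = 0.0934), and was called with the replicate block (-0.83, edgeR adjusted p = 0.0253). AK030286, 166 bases ahead of Etf1, had 0.01 ± 0.36 and AK139178, 154 bases ahead of Mtus2, had 0.15 ± 0.28 (edgeR adjusted p = 0.994 and 0.783). After acute L-DOPA, AK042506 opposite Usp36, a deubiquitinase gene, had 0.71 ± 0.10 (edgeR adjusted p = 0.000701) and AK032401, in an intron of the phosphofructokinase gene Pfkp, had 0.63 ± 0.11 (edgeR adjusted p = 0.00408). AK131730 had 0.04 ± 0.10 (edgeR adjusted p = 0.845). AK078270 had -0.19 ± 0.34 (edgeR adjusted p = 0.759), and AK043459, in Fam115a, -0.02 ± 0.24 (edgeR adjusted p = 0.961).

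Named genes that do not overlap their clone share no counted bases with it, and were tested in the treatment other than the one by which the clone was chosen, so the neighbour of a clone chosen in both was tested in both. Of 9 such neighbours of acute choices, 7 were called in the direction of the clone after chronic L-DOPA, 5 of 7 higher and 2 of 2 lower, where 7.71% and 4.33% of all transcripts were. The neighbours are highest-mean transcripts, and most transcripts of the list are not. In the fit on 1 transcript per symbol, 1641 of 19742 were called higher and 1022 lower. A share among genes of like level was not taken. Npas4 had 14.9, 10.0 and 16.2 CPM in chronic lesioned and 3.41, 2.95 and 1.94 CPM in chronic unlesioned libraries (log2 fold change 2.39 ± 0.22, edgeR adjusted p = 5.24e-05). Pcsk1 had 1.24 ± 0.15 (edgeR adjusted p = 0.000452), Rem2 0.61 ± 0.13 (edgeR adjusted p = 0.0101), the release factor gene Etf1 0.61 ± 0.08 (edgeR adjusted p = 0.000705), and the mRNA export factor gene Thoc4 0.40 ± 0.10 (edgeR adjusted p = 0.0221). The call of Thoc4 was lost without replicate 1 or 3 of either chronic group (edgeR adjusted p between 0.0586 and 0.0884). Gpr139 had -1.83 ± 0.30 (edgeR adjusted p = 0.0032) and Chrm4 -0.59 ± 0.12 (edgeR adjusted p = 0.00885). These 7 genes went the way their clones had gone in acute libraries, although AK048677, 536 bases behind Thoc4, had itself -0.36 ± 0.26 after chronic L-DOPA (edgeR adjusted p = 0.422). Hnrnpu (0.21 ± 0.08, edgeR adjusted p = 0.111) and Mtus2 (-0.26 ± 0.09, edgeR adjusted p = 0.092, against the direction of its clone) were not called, but passed the threshold with the replicate block (edgeR adjusted p = 0.0241 and 0.0177) and in the fit on all 12 libraries.

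Of 11 neighbours of chronic choices 10 could be tested after acute L-DOPA, and 4 were called in the direction of the clone, 3 of 6 higher and 1 of 4 lower, where 6.85% and 6.02% of all transcripts were. In the acute fit on 1 transcript per symbol, 1589 of 20336 were called higher and 1546 lower. Arid3b, a gene of an AT-rich interaction domain protein 1254 bases ahead of AK138106, had 9.66, 9.16 and 10.4 CPM in acute lesioned and 2.94, 2.41 and 2.57 CPM in acute unlesioned libraries (log2 fold change 1.92 ± 0.08, edgeR adjusted p = 2.39e-08). AK138106 itself had 0.47 ± 0.17 there (edgeR adjusted p = 0.0926). The other called genes were Npas4, Pcsk1 and Gpr139. Trim62 (0.09 ± 0.09, edgeR adjusted p = 0.561), Rnf217 (0.33 ± 0.11, edgeR adjusted p = 0.0736), Cntn5, Cry1, Dlg2 and Agap2 were not called.

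Members of 2 lists of known genes overlapped or lay within 10 kb of 4 clones, namely AK143311 at Fosl2, AK035139 at Homer1 and AK156531 at Npas4 for 60 activity-regulated genes and AK138202 at Chrm4 for 29 striatal genes. On the rule of the clones, 37 of the 60 activity-regulated genes were higher after acute and 48 after chronic L-DOPA, with 0 lower and medians of 1.41 and 2.20, against -0.04 and -0.09 over all named genes. Of the striatal genes 1 was higher and 2 lower after acute, and 5 higher and 1 lower after chronic L-DOPA, with medians of -0.34 and -0.09. The rule was met by 1.18% (higher) and 0.22% (lower) of all named genes after acute and by 2.12% and 0.669% after chronic L-DOPA. Both lists were chosen with earlier results of these data known, so their counts and medians are a description and not a test.

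The threshold left similar clones on both sides. Just inside were AK143370 at 1, AK038281 at 1.008 and AK049610 at -1.013, and just outside AK081893 at -0.982, AK136907 at 0.979 and AK133450 at -0.97.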

How the data were processed

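Libraries had been made from striatal total RNA (0.5 µg per condition, TruSeq) and sequenced on a Genome Analyzer II. The authors mapped the reads to mm9 on a Genomatix Mining Station. The deposited values used here are counts of reads per transcript for 189660 transcripts in 12 libraries, without normalization. Use of strand and treatment of multi-mapping reads are not given in the sources used here. The authors' comparison tables (DESeq p-values and fold changes) and 48 per-sample columns of repeated or normalized values were not used. Rows without a symbol (296, 0.0485% of counts) stayed in the CPM totals.

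CPM is the count scaled to the library total. For each AK symbol and each named gene the transcript with the highest mean was taken. Positions used every listed transcript of a gene, so a clone can overlap a gene without touching the transcript that gave the gene's level. Named genes exclude accessions, LOC, Rik, Gm, Ensembl and clone names. The members and gene lists were chosen with earlier results of these data known. Named in the text are the clones with the largest ratios in each direction and treatment (up to 6 each), the highest 5, the farthest 5, those at the threshold and those near listed genes; the other clones named were chosen after their values were seen. Tests used edgeR 4.0.16 (filterByExpr, TMM, quasi-likelihood) in R 4.3.3 over all transcripts, 129674 acute and 127063 chronic, with Benjamini-Hochberg adjustment, and were tested on simulated data, where most changed transcripts were recovered but a share of the calls several times larger than the threshold of 0.05 was false. DESeq2 1.42.0, other scalings and filters, and leaving out each library were tried. Sequences and positions came from the NCBIM37 genome, which is mm9, and GENCODE vM1. Sequences are printed for some of the clones only, and that of AK040133 is not reported here.

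Replicate numbers are shared across sides; the series' design counts 12 mice with 3 in each group, while the study's text treats the unlesioned side as a control within the mouse. Over 12797 genes, deviations of same-numbered libraries correlated at 0.479, 0.49 and 0.384 (acute) and 0.513, 0.572 and 0.158 (chronic). Libraries of unlike number had -0.274 to -0.138 (acute) and -0.514 to 0.154 (chronic). The 0.158 of chronic replicate 3 was thus close to the 0.154 of chronic lesioned 1 with chronic unlesioned 3. Same-numbered libraries were taken as pairs in an alternative fit. The main fit has no block, since the study's methods name none. P-values measure the spread between these libraries. Floors of 3 counts cover counting error only.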

Additional observations from a re-analysis of the deposited data

Results flagged for a closer look

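In AK143370, opposite Adora1, the gene of the adenosine A1 receptor, all 3 acute lesioned libraries lay below all 3 acute unlesioned ones (log2 ratio -0.26), while all 3 chronic lesioned libraries lay above the chronic unlesioned ones (1.00). AK155410, opposite Osbpl3, an oxysterol-binding protein gene, had the same form, at -0.18 and 1.06. The groups did not overlap in either treatment, but the acute differences were not called by edgeR's quasi-likelihood test (-0.22 ± 0.10 and -0.15 ± 0.09, edgeR adjusted p = 0.165 and 0.322), and the difference between the treatments was not tested. Adora1 stood at -0.26 and 0.73 and Osbpl3 at -0.24 and 0.89. In GENCODE, 27.3% of AK143370 lies opposite exons of Adora1 and 72.7% outside any gene. Of the span of AK155410, with its introns included, 2.11% lies opposite exons of Osbpl3. Where clone and gene coincide, their reads cannot be told apart.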

How the results depend on the processing

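The number of clones that meet the rule depended on its constants. It was 15 with a pseudocount of 0.5 CPM and 30 with a minimum mean of 0.5 CPM, all among the 55, and 75 with a pseudocount of 0.01 CPM; leaving out each library gave 54 to 62. The counts of calls in the treatment that did not choose the clone stayed within 1.5 times; at an adjusted p under 0.01 they were 16 and 21 for acute and chronic choices and 5 and 4 for their neighbours. Acute choices called after chronic L-DOPA numbered 16 to 18 on leaving out each library, 19 with the replicate block and 21 in a fit on all 12 libraries. Chronic choices called after acute L-DOPA numbered 22 to 26, 29 and 23 in the same order, and 24 when the minimum of 0.2 CPM was taken over the 6 chronic libraries alone, an alternative chosen after seeing the data. Neighbouring genes called numbered 6 to 8 and 4 over the leave-one-out fits, the block and the 12-library fit. Of 1592 alternative values of 133 single fold changes, 71 lost and 29 gained a call, and no called value changed sign. Among those that lost a call without single libraries were AK155775, AK134233, AK165297, AK142149 and AK042516 (acute) and AK171839 and Thoc4 (chronic). Not all of the 71 are named here. AK155775, AK134233 and AK142149 also lost theirs in the 12-library fit (edgeR adjusted p = 0.0731, 0.056 and 0.0592), and AK155775 under DESeq2 (0.79, adjusted p = 0.0998); the cause was not tested. The replicate block added calls, among clones for AK043110 and AK138202 after chronic L-DOPA (0.83 and -0.83, edgeR adjusted p = 0.0224 and 0.0253) and for AK081090, AK089475 and AK132566 after acute L-DOPA (0.87, 0.52 and -0.54, edgeR adjusted p = 0.0303, 0.0434 and 0.0248), and removed none. Over all transcripts the block raised the calls from 8878 higher and 7806 lower to 14697 and 13540 after acute L-DOPA, and from 9793 and 5502 to 14921 and 12584 after chronic L-DOPA. Counts of a few reads set the unlesioned level of AK143311, AK142061 and AK040133, and limit how well their ratios are known.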
